A study of Mus musculus with 6 samples.

Results

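The genes described here are 48 regulators of cell division: the cyclins, the cyclin-dependent kinases (CDKs) and their inhibitors, the E2F and Rb families, and factors that start or end mitosis. They were chosen by name, with earlier results of these data known. A member entered where the array annotation gave a row that named it and no other gene. That held for 47 of the 48, among 19938 genes measured in all, and Ccnb1 was not analysed here. RNA of whole brains from mouse embryos at embryonic day 16.5 was read on Affymetrix Mouse Gene 1.0 ST arrays, 1 array per sample. The groups were 3 wild-type brains and 3 Tdp2Δ1-3 brains, whose Tdp2 allele the series title calls a knock-out. The labels name no Cre, promoter, strain or treatment for either group. Tdp2 encodes the phosphodiesterase that removes topoisomerase II peptide left on DNA ends. The labels call the arrays of a genotype biological replicates and say nothing of sex or litter. The comparison addresses how expression in the embryonic brain changes with the Tdp2 mutation.

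Cyclins are short-lived proteins that switch on CDKs, and each pair drives one step of division. D-type cyclins with Cdk4 and Cdk6 phosphorylate the Rb family in G1, which frees E2F factors to switch on the genes of S phase. Cyclin A and cyclin B with Cdk1 then carry the cell into mitosis, and the anaphase-promoting complex (APC/C) destroys cyclins and securin to end it. In the brain at this age the dividing cells are mainly radial glia and intermediate progenitors beside the ventricles. Neurons have left the cycle.

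Every value below was taken as a log2 expression value, although the sources state no log base. Each was centred on the gene's median over the 6 arrays. It therefore says how an array compares with the other arrays for that gene and gives no absolute level. Levels of different genes cannot be compared on this scale. Where every mutant lies above every wild type, the highest wild type and the lowest mutant have equal values of opposite sign, because the median lies halfway between them. Where every mutant lies below every wild type, this holds for the lowest wild type and the highest mutant. Array values are given in the order of replicates 1 to 3. A difference is the mutant mean minus the wild-type mean on the log2 scale, with limma's moderated standard error (SE). A gene was called at a Benjamini-Hochberg adjusted p under 0.05 over 23410 rows. Tdp2 was lower in all mutants, with values of 0.90, 1.10 and 1.34 in wild-type replicates 1 to 3 and -1.05, -0.90 and -0.94 in mutant replicates 1 to 3, a difference of -2.08 ± 0.10 (SE, n = 3 per genotype, limma adjusted p = 0.00035). Whether the Tdp2 row reads the deleted part is not given in the sources used here. Array medians over all rows lay between -0.011 and 0.014.

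Regulators of division were higher in the mutant brains. Of the 47 measured, 27 rose at the threshold in limma and 0 fell, against 2.34% of all rows called higher and 4.13% called lower. At an unadjusted limma p under 0.05, 36 were higher and 1 lower, and the share of all rows at that limit is not given here. The rises of the 27 ran from 0.21 (Cdc25a) to 0.69 (Nusap1), or 1.16-fold to 1.61-fold. Of the 27, 6 also reached 1.5-fold, against 0.188% of all rows. These were Nusap1, Cks2, Cdk1, Hmmr, Melk and Ccna2. The members' median difference was 0.33 and the median over all rows was 0.013. Differences were positive for 43 members, against 56.8% of all rows. Because the list was chosen with earlier results of these data known, these counts describe the list and are no test of it.

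In 38 of the 47 members every mutant array lay above every wild-type array, against 13.1% of all rows. The 38 held all 27 called members and 11 that were not called. In 19 members the gap between the genotypes was wider than the range within either genotype. The share of all rows with such a gap is not given here, so how unusual that count is cannot be read from it. Wild-type replicate 1 was the lowest of the 6 arrays for 38 members, while it was the lowest for 21.4% of all rows and for 52.4% of the rows with every mutant above every wild type. Mutant replicate 1 was the lowest mutant for 27 members, against 38.9% of all rows and 54.8% of the rows so separated. The members' mean value on each array was -0.26, -0.13 and -0.11 for wild type against 0.12, 0.19 and 0.18 for mutant. What moved wild-type replicate 1 below the other wild types was not tested.

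**Figure D1:**
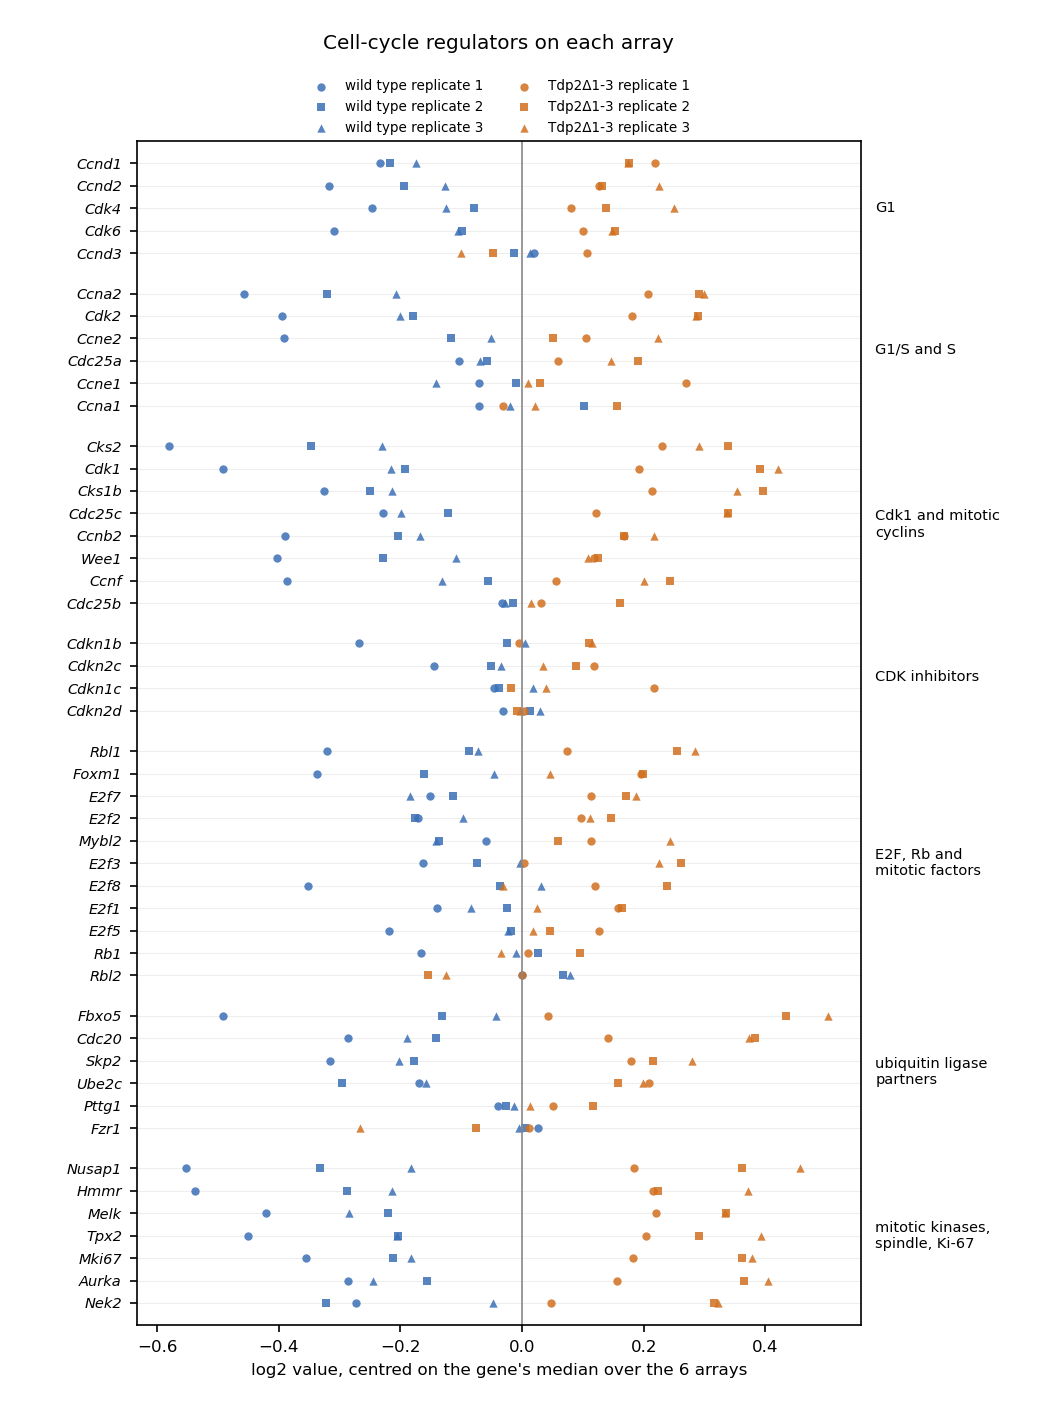
Centred log2 value (horizontal axis) of each of 47 cell-cycle regulators (rows, grouped by role) on each of the 6 arrays, with wild types in blue and Tdp2Δ1-3 in orange, and replicates 1 to 3 as circles, squares and triangles. In 38 members all orange points lie to the right of all blue points, and the lowest blue point is most often wild-type replicate 1.

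The cyclins and kinases of G1 come first in the cycle. Of 5, the cyclins Ccnd1 and Ccnd2 and the kinases Cdk4 and Cdk6 rose, and Ccnd3 was not called. Ccnd1 had values of -0.23, -0.22 and -0.17 for wild type against 0.22, 0.18 and 0.17 for mutant. Both genotypes were tight, the groups were far apart, and the difference was 0.40 ± 0.042 (SE, 1.32-fold, limma adjusted p = 0.0048). Ccnd2, the D-type cyclin known for its place in the basal processes of radial glia, had values of -0.32, -0.19 and -0.13 for wild type against 0.13, 0.13 and 0.23 for mutant, with a difference of 0.37 ± 0.060 (limma adjusted p = 0.014). Its wild types were more spread than its mutants, and the groups did not overlap.

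Ccnd3 did not move with its relatives, and had values of 0.020, -0.013 and 0.013 for wild type against 0.11, -0.048 and -0.10 for mutant. Mutant replicate 1 was its highest array and mutant replicate 3 its lowest, so the genotypes overlapped fully, and the difference was -0.021 ± 0.059 (limma adjusted p = 0.89). Cdk4 had values of -0.25, -0.080 and -0.12 for wild type against 0.080, 0.14 and 0.25 for mutant, a difference of 0.31 ± 0.063 (limma adjusted p = 0.031). Cdk6 had values of -0.31, -0.10 and -0.11 for wild type against 0.10, 0.15 and 0.15 for mutant, a difference of 0.31 ± 0.063 (limma adjusted p = 0.032). The partner kinases of the D-type cyclins rose by amounts that differ by less than their errors, and for both wild-type replicate 1 was the lowest array. Of the 5 genes, 3, 1 and 3 were called without wild-type replicate 1, 2 or 3, and 4, 1 and 2 without mutant replicate 1, 2 or 3. The call of Ccnd1 held in each of these fits, with adjusted p at most 0.037.

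Among 6 genes of the entry into S phase and its passage, Ccna2, Cdk2 and Cdc25a rose. Ccna2 encodes the cyclin A of somatic cells, which acts in S and G2 phase. Its values were -0.46, -0.32 and -0.21 for wild type against 0.21, 0.29 and 0.30 for mutant, a difference of 0.59 ± 0.068 (SE, 1.51-fold, limma adjusted p = 0.0062). Its call held in all 6 fits on 5 arrays (adjusted p at most 0.047). Cdk2, the kinase partner of cyclins E and A, had values of -0.39, -0.18 and -0.20 for wild type against 0.18, 0.29 and 0.29 for mutant and a difference of 0.51 ± 0.067 (limma adjusted p = 0.0087). All wild types of both genes lay below all mutants, and wild-type replicate 1 was again the lowest.

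Cdc25a, a phosphatase that removes inhibitory phosphates from Cdk2, had values of -0.10, -0.058 and -0.070 for wild type against 0.058, 0.19 and 0.15 for mutant. It showed the smallest rise among the called members, 0.21 ± 0.048 (limma adjusted p = 0.044). Ccne2, a cyclin E that activates Cdk2, had values of -0.39, -0.12 and -0.051 for wild type against 0.10, 0.051 and 0.22 for mutant. Its groups did not overlap and wild-type replicate 1 stood well below the other arrays, and the difference of 0.31 ± 0.091 was not called (limma adjusted p = 0.086). Neither were the differences of Ccne1 (0.18 ± 0.076, limma adjusted p = 0.22) and of Ccna1 (0.045 ± 0.066, limma adjusted p = 0.77), the cyclin A known mainly from the male germ line. Of the 6 genes, 2, 2 and 2 were called without wild-type replicate 1, 2 or 3, and 3, 1 and 2 without mutant replicate 1, 2 or 3.

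The kinase of mitosis and the proteins that bind or modify it had a median difference of 0.44. Of 8 measured, Cdk1, Ccnb2, Cks1b, Cks2, Cdc25c and Wee1 rose, and Ccnf and Cdc25b were not called. Cdk1 had values of -0.49, -0.19 and -0.22 for wild type against 0.19, 0.39 and 0.42 for mutant. The lowest mutant, replicate 1, lay above the highest wild type, replicate 2, and the difference was 0.63 ± 0.093 (SE, 1.55-fold, limma adjusted p = 0.011). Ccnb2, a B-type cyclin that activates Cdk1, had values of -0.39, -0.20 and -0.17 for wild type against 0.17, 0.17 and 0.22 for mutant, with a difference of 0.44 ± 0.063 (limma adjusted p = 0.011). Its mutants agree within 0.049, while its wild types span 0.22.

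Cks1b and Cks2 encode the pair of small subunits that bind to CDKs and help them phosphorylate substrates. Cks1b had values of -0.33, -0.25 and -0.21 for wild type against 0.21, 0.40 and 0.35 for mutant, a difference of 0.58 ± 0.060 (SE, just under 1.5-fold, limma adjusted p = 0.0047). Cks2 had values of -0.58, -0.35 and -0.23 for wild type against 0.23, 0.34 and 0.29 for mutant, a difference of 0.67 ± 0.085 (1.59-fold, limma adjusted p = 0.0081). Both separated the genotypes on every array. Cks2 is named by 3 array rows, with differences of 0.67, 0.70 and 0.67, all called, and rows that read near-identical copies of one gene cannot be told apart.

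Cdc25c and Wee1, opposed regulators of the inhibitory phosphates on Cdk1, both rose. The phosphatase Cdc25a, given above, was called higher too, while the phosphatase Cdc25b and the kinase Pkmyt1 were not called. Pkmyt1, which is outside the members, had a difference of -0.00025 ± 0.062 (SE). Cdc25c, a phosphatase that activates Cdk1, had values of -0.23, -0.12 and -0.20 for wild type against 0.12, 0.34 and 0.34 for mutant, a difference of 0.45 ± 0.068 (limma adjusted p = 0.012). Wee1, the kinase that inhibits Cdk1, had values of -0.40, -0.23 and -0.11 for wild type against 0.12, 0.12 and 0.11 for mutant, a difference of 0.36 ± 0.072 (limma adjusted p = 0.027). The mutants of Wee1 were nearly equal and those of Cdc25c held 1 lower array, replicate 1. Ccnf, an F-box protein related to cyclins, had a difference of 0.36 ± 0.090 (limma adjusted p = 0.057) and Cdc25b, another Cdk1 phosphatase, of 0.094 ± 0.051 (limma adjusted p = 0.34). Of the 8 genes, 6, 5 and 6 were called without wild-type replicate 1, 2 or 3, and 7, 1 and 5 without mutant replicate 1, 2 or 3. Only Cks1b was called in every one of these fits, with adjusted p at most 0.037.

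The proximal promoters of several of these genes are shown because regulators of mitosis are known to share words in them. The CHR word, bound by the DREAM and B-MYB complexes, sits close to the start of many genes of G2 and mitosis. CCAAT is the word bound by NF-Y, and E2F factors bind a GC-rich word found in genes of S phase. The 150 bases upstream of the start are from RefSeq on GRCm38.p6, 5′ to 3′ on the gene's strand. Capitals mark the CHR word, spelled TTTGAA or with a central CG as TTCGAA, the NF-Y word CCAAT, and the E2F word, which was spelled TTTCCCGC or TTTGGCGC or TTTCGCGC or TTTGCCGC. Both strands were searched, so a word on the other strand reads as its reverse complement. Cdk1 to Hmmr hold CCAAT words. Nusap1, with the largest rise, and Pttg1, which was not called, hold none of the words in this stretch.
Cdk1, chr10:69352913-69353062 (- strand): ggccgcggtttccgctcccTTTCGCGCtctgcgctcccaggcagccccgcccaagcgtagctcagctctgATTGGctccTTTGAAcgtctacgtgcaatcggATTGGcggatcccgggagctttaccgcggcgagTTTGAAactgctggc
Ccnb2, chr9:70421555-70421704 (- strand): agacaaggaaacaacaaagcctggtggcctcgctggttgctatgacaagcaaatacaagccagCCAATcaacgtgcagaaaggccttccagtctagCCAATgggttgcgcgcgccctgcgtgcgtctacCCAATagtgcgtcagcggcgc
Cks1b, chr3:89418292-89418441 (- strand): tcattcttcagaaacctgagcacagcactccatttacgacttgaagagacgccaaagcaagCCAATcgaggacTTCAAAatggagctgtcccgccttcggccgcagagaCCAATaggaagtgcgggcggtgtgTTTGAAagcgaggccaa
Cdc20, chr4:118437344-118437493 (- strand): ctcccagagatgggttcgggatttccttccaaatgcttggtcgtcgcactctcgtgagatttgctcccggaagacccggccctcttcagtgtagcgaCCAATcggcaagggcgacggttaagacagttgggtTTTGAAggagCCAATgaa
Ube2c, chr2:164769779-164769928 (+ strand): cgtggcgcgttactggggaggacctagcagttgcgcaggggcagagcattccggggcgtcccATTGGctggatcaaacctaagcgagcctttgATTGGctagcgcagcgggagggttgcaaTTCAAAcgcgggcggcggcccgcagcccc
Hmmr, chr11:40733438-40733587 (- strand): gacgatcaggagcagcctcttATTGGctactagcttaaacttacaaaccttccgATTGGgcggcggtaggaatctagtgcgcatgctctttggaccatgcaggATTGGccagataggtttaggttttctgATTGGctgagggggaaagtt
Nusap1, chr2:119618148-119618297 (+ strand): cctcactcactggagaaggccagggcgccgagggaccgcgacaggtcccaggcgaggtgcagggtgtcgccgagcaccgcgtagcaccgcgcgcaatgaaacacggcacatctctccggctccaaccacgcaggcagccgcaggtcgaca
Pttg1, chr11:43425982-43426131 (- strand): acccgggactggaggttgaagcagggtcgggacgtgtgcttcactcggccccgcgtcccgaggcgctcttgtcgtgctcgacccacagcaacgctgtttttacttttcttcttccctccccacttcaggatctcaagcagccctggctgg

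In Cdk1 the capitals show an E2F word starting 131 bases before the start, CCAAT words on the other strand at 80 and 48 bases and CHR words at 71 and 15 bases. Ccnb2 holds CCAAT words at 87, 54 and 21 bases. Cks1b holds CHR words at 77 and 17 bases and CCAAT words at 89 and 41 bases. Cdc20 holds a CHR word at 18 bases between CCAAT words at 53 and 8 bases, and Ube2c a CHR word at 29 bases after CCAAT words at 88 and 57 bases. Hmmr holds 4 CCAAT words, at 129, 96, 47 and 20 bases, and no CHR or E2F word.

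Promoter entries were matched by symbol for 36 of the 47 members, which gave 41 windows of 250 bases because some genes have several starts. CCAAT was present in 16 of the 23 windows of called members (69.6%) and in 10 of the 18 windows of members not called (55.6%). The share was 34.5% in the windows of all genes tested and 33.8% in all windows of the table. A CHR word was present in 34.8% of windows of called members and 22.2% of those not called, against 14.8% for all genes tested and 17.1% for all windows. An E2F word was present in 21.7% and 5.56%, against 2.46% and 1.86%. Windows with 2 or more CCAAT words, a count added after the matches were seen, made up 52.2% and 22.2%, against 11.1% and 10.1%. Among genes called higher that are no member, 202 of 421 windows held CCAAT, 84 CHR and 34 E2F, and among genes called lower 279, 118 and 14 of 959 windows did. These shares describe letters in a window, and no test was made of them.

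No inhibitor of CDKs passed the threshold. Of the 4 measured, 0 were called by limma, and 1, Cdkn2c, lay under 0.05 before adjustment. Cdkn2c, an inhibitor of Cdk4 and Cdk6, had values of -0.15, -0.052 and -0.035 for wild type against 0.12, 0.088 and 0.035 for mutant. Its groups did not overlap, and its difference was 0.16 ± 0.049 (limma adjusted p = 0.10). Cdkn1b, an inhibitor of Cdk2 complexes that accumulates in cells leaving the cycle, had values of -0.27, -0.025 and 0.0051 for wild type against -0.0051, 0.11 and 0.12 for mutant, a difference of 0.17 ± 0.078 (limma adjusted p = 0.26). Wild-type replicate 1 was far below the other arrays, which overlapped, and a second row gave 0.16.

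Cdkn1c, a relative of Cdkn1b that is expressed from the maternal allele, had values of -0.047, -0.038 and 0.018 for wild type against 0.22, -0.018 and 0.040 for mutant. Mutant replicate 1 was its highest array and the other 5 lay close together, and the difference was 0.10 ± 0.065 (limma adjusted p = 0.43). Cdkn2d, a further inhibitor of Cdk4 and Cdk6, had values of -0.031, 0.012 and 0.029 for wild type against 0.0027, -0.0085 and -0.0027 for mutant, a difference of -0.0062 ± 0.041 (limma adjusted p = 0.96). It had the smallest range over the arrays of all members. No inhibitor was called with any 1 array left out.

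Of 11 transcription factors of the cycle and Rb family members, E2f2, E2f7, Rbl1 and Mybl2 rose, 7 were not called, and the median was 0.24. E2f7, an atypical E2F that represses E2F targets, had values of -0.15, -0.11 and -0.18 for wild type against 0.11, 0.17 and 0.19 for mutant, a difference of 0.31 ± 0.044 (SE, limma adjusted p = 0.011). E2f2, an activating E2F, had values of -0.17, -0.18 and -0.10 for wild type against 0.10, 0.15 and 0.11 for mutant, a difference of 0.27 ± 0.044 (limma adjusted p = 0.015). In neither was wild-type replicate 1 the lowest array.

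The Rb family held differences of both signs. Rbl1, the family member known to be made in dividing cells, had values of -0.32, -0.088 and -0.073 for wild type against 0.073, 0.26 and 0.28 for mutant, a difference of 0.36 ± 0.083 (limma adjusted p = 0.042). Rb1 had values of -0.17, 0.027 and -0.0098 for wild type against 0.0098, 0.095 and -0.034 for mutant, which overlapped, and a difference of 0.073 ± 0.063 (limma adjusted p = 0.58). Rbl2, the member known from resting cells, had values of -0.00047, 0.067 and 0.080 for wild type against 0.00047, -0.15 and -0.12 for mutant, a difference of -0.14 ± 0.054 (limma adjusted p = 0.17). Mutant replicate 1 reached the wild-type range of Rbl2, the other mutants lay below it, and with array weights the gene fell (limma adjusted p = 0.014). Array weights called 2781 of 23410 rows lower.

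Mybl2, which encodes B-MYB, an activator of genes of G2 and mitosis, had values of -0.059, -0.14 and -0.14 for wild type against 0.11, 0.059 and 0.24 for mutant, a difference of 0.25 ± 0.058 (limma adjusted p = 0.043). Its groups did not overlap, yet its call was lost with any 1 array left out (adjusted p up to 0.15). Foxm1, which acts with B-MYB, had values of -0.34, -0.16 and -0.046 for wild type against 0.19, 0.20 and 0.046 for mutant and just missed the threshold with a difference of 0.33 ± 0.080 (limma adjusted p = 0.051). E2f1, E2f3, E2f5 and E2f8 had differences of 0.20, 0.24, 0.15 and 0.23, with limma adjusted p from 0.077 to 0.27. The second row of E2f3 gave 0.13 (limma adjusted p = 0.16). Of the 11 genes, 2, 1 and 3 were called without wild-type replicate 1, 2 or 3, and 4, 0 and 1 without mutant replicate 1, 2 or 3.

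Of 6 genes of protein destruction, Cdc20, Ube2c and Skp2 rose. Cdc20, the activator of the APC/C in mitosis, was called, and Fzr1, the APC/C activator of late mitosis and G1, was not called. Cdc20 had values of -0.29, -0.14 and -0.19 for wild type against 0.14, 0.38 and 0.37 for mutant, a difference of 0.50 ± 0.074 (SE, 1.42-fold, limma adjusted p = 0.011). Fzr1 had values of 0.026, 0.0048 and -0.0048 for wild type against 0.011, -0.076 and -0.27 for mutant, a difference of -0.12 ± 0.070 (limma adjusted p = 0.39). The wild types of Fzr1 were nearly equal, and mutant replicate 3 was well below all other arrays.

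Ube2c, the ubiquitin-conjugating enzyme of the APC/C, had values of -0.17, -0.30 and -0.16 for wild type against 0.21, 0.16 and 0.20 for mutant, a difference of 0.40 ± 0.051 (limma adjusted p = 0.0085). Skp2, the receptor that sends Cdkn1b for destruction, had values of -0.32, -0.18 and -0.20 for wild type against 0.18, 0.22 and 0.28 for mutant, a difference of 0.46 ± 0.053 (limma adjusted p = 0.0063). For both the genotypes were well apart, and the call of Skp2 held in all 6 fits on 5 arrays (adjusted p at most 0.047). Fbxo5, an inhibitor of the APC/C, had values of -0.49, -0.13 and -0.042 for wild type against 0.042, 0.43 and 0.50 for mutant. It had the largest SE of all members, with 1 low wild type and 2 high mutants, and a difference of 0.55 ± 0.15 was not called (limma adjusted p = 0.067). Pttg1, securin, had a difference of 0.087 ± 0.044 (limma adjusted p = 0.31). Of the 6 genes, 3, 3 and 3 were called without wild-type replicate 1, 2 or 3, and 4, 1 and 3 without mutant replicate 1, 2 or 3.

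All 7 mitotic kinases, spindle factors and Ki-67 rose, with a median of 0.58. Melk, a kinase of dividing progenitors, had values of -0.42, -0.22 and -0.28 for wild type against 0.22, 0.34 and 0.33 for mutant, a difference of 0.61 ± 0.063 (SE, 1.52-fold, limma adjusted p = 0.0048). Mki67, the Ki-67 antigen found in cycling cells, had values of -0.36, -0.21 and -0.18 for wild type against 0.18, 0.36 and 0.38 for mutant, a difference of 0.56 ± 0.070 (limma adjusted p = 0.0077). In both the mutants lay above the wild types by a gap wider than the spread within either genotype.

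Aurka, a kinase of centrosomes and spindle poles, had values of -0.29, -0.16 and -0.25 for wild type against 0.16, 0.37 and 0.40 for mutant, a difference of 0.54 ± 0.072 (limma adjusted p = 0.0090). Tpx2, the spindle factor that activates Aurka, had values of -0.45, -0.20 and -0.21 for wild type against 0.20, 0.29 and 0.39 for mutant, a difference of 0.58 ± 0.080 (limma adjusted p = 0.0096). Wild types and mutants were apart for both partners. Nusap1, a microtubule-binding spindle gene, had values of -0.55, -0.33 and -0.18 for wild type against 0.18, 0.36 and 0.46 for mutant, a difference of 0.69 ± 0.10 (limma adjusted p = 0.011). Wild-type replicate 1 was the lowest array of Nusap1, and its wild types were spread. Hmmr, which also binds microtubules, rose by 0.62 (limma adjusted p = 0.010), and the centrosomal kinase Nek2 by 0.44 (limma adjusted p = 0.036). The gap was the narrowest of the group in Nek2, where wild-type replicate 3 and mutant replicate 1 lay only 0.094 apart. Of the 7 genes, 6, 5 and 7 were called without wild-type replicate 1, 2 or 3, and 7, 1 and 6 without mutant replicate 1, 2 or 3. The 1 called without mutant replicate 2 was Melk.

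**Figure D2:**
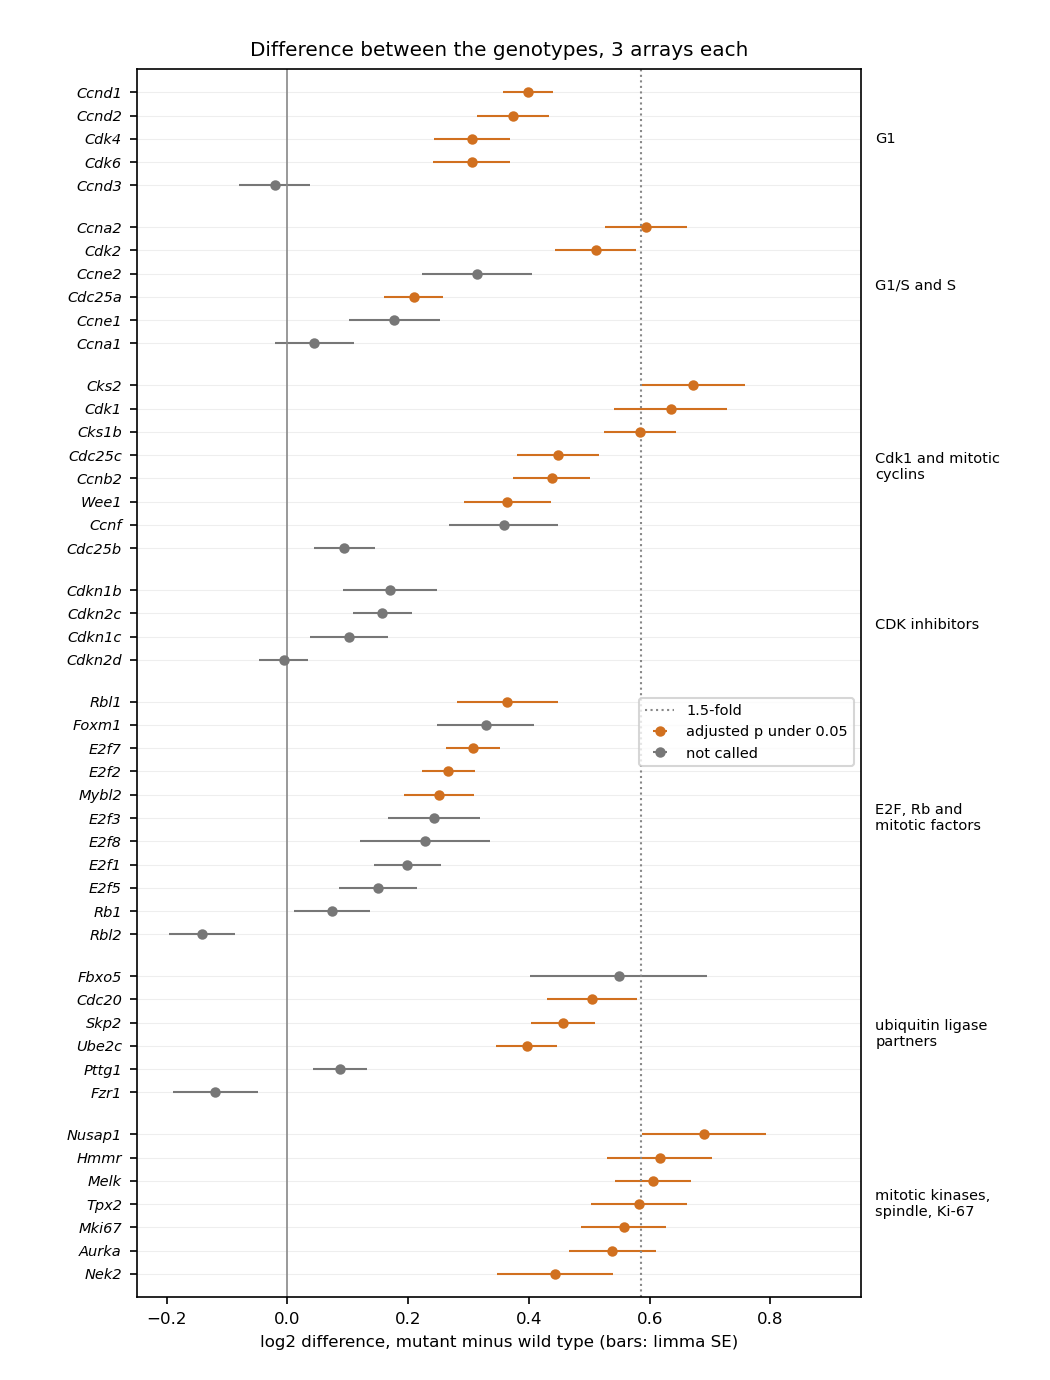
Log2 difference, mutant minus wild type (horizontal axis), of each member with limma's SE as bars (n = 3 arrays per genotype), by role. Orange marks the 27 members with an adjusted p under 0.05, grey the 20 others, and the dotted line 1.5-fold. All 7 mitotic kinases and spindle genes are orange and all 4 CDK inhibitors grey.

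Relatives within a family were compared directly, as the value of one gene minus that of the other on each array. Of 16 pairs, 9 separated the genotypes on every array and 7 overlapped. Pairs of other genes were not compared, so the count has no share over all genes beside it. Cdc20 minus Fzr1 was -0.21 ± 0.086 (SD, n = 3) in the wild types and 0.41 ± 0.26 in the mutants, a shift of 0.62. Ccna1 minus Ccna2 shifted by -0.55, Rbl1 minus Rbl2 by 0.51 and Ccnd1 minus Ccnd3 by 0.42. In these pairs a called gene is set against a relative that was not called, and the shift restates their differences given above. Each of these 4 had a two-sided exact permutation p of 0.1, the smallest that 3 against 3 arrays allow, and 0.18 after adjustment over 16 pairs. So this test cannot pass the threshold for any pair, and no other test of the pairs was run. Cdk4 minus Cdk6 was 0.021 ± 0.041 (SD, n = 3) in the wild types and 0.022 ± 0.069 in the mutants, and Cks1b minus Cks2 was 0.12 ± 0.12 (SD, n = 3) in the wild types and 0.034 ± 0.044 in the mutants, and both overlapped (exact permutation p = 1.0 and 0.4). Ccnd1 minus Ccnd2 shifted by 0.024 (exact permutation p = 0.8).

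How many members were called depended on the arrays used. Without mutant replicate 2, 5 of the 47 were called, and these were Ccnd1, Ccna2, Cks1b, Skp2 and Melk, the only members called in all 6 fits that leave out 1 array. Leaving out the wild types in turn gave 22, 17 and 24 called members (replicates 1 to 3), and leaving out mutant replicate 1 or 3 gave 29 or 19. The median difference lay between 0.28 and 0.39 in these fits. At 1.5-fold the count dropped to 1 when either wild-type replicate 1 or mutant replicate 2 was missing, and reached 11 when mutant replicate 1 was. Over all rows the count of higher calls, 548 with all arrays, changed as well. It was 268, 118 and 427 without wild-type replicate 1, 2 or 3. Without mutant replicate 1, 2 or 3 it was 862, 32 and 197.

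**Figure D3:**
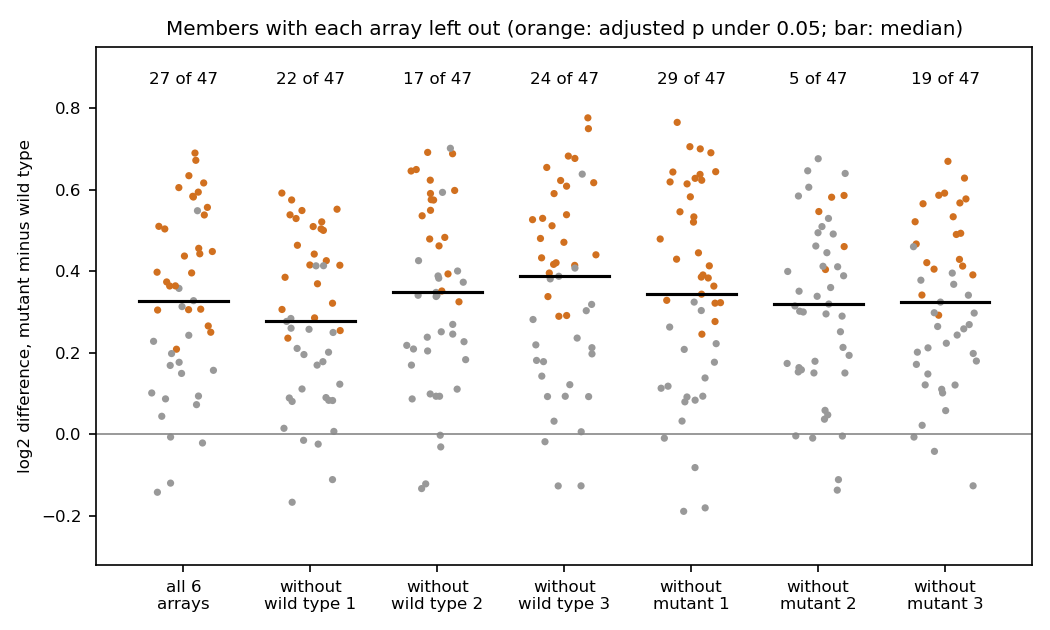
Log2 differences of the 47 members (points) with all 6 arrays and with each array left out, where orange points have a limma adjusted p under 0.05 and the bar is the median. The medians stay between 0.28 and 0.39, while the number called ranges from 5 to 29. Of all rows, 32 to 862 were called higher in the fits with an array left out.

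Among 78 other measured genes of the cycle, outside the 48, 14 rose and 1 fell, against the 2.34% and 4.13% of all rows, with a median of 0.064. Their largest median, 0.58, was that of the cytokinesis factors. Of 7, 5 rose, among them Cep55 by 0.58, Ect2 by 0.62, Kif23 by 0.58 and Prc1 by 0.52 (limma adjusted p from 0.0045 to 0.033). Of 14 further mitotic kinases, phosphatases and separase, 6 rose, including the Polo-like kinase Plk1 by 0.57, the Aurora kinase Aurkb by 0.38, Cdc14a by 0.44 and the centriole kinase Plk4 by 0.32 (limma adjusted p from 0.010 to 0.032).

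Of 13 APC/C subunits only Cdc26 rose, by 0.21 (limma adjusted p = 0.042), a call lost with array medians set equal, with all rows tested, with cyclic loess and with any 1 array left out (adjusted p up to 0.14), and the median was 0.065. Of 10 partners of the DREAM and B-MYB complexes, Rbbp4 rose by 0.21 and Tfdp2 by 0.32 (limma adjusted p = 0.037 and 0.045), calls lost in 5 of the 6 fits on 5 arrays. Of 6 SCF subunits and receptors, Fbxw7, a receptor that sends cyclin E for destruction, fell by 0.29 (limma adjusted p = 0.014), and its other row gave 0.012 ± 0.046 (SE). The fall lost its call without wild-type replicate 2 or mutant replicate 2 (adjusted p up to 0.072). None of 3 further CDK inhibitors was called by limma, and 1, Cdkn3, lay under 0.05 before adjustment. Of 25 cyclins and kinases known mainly for work outside division, such as transcription or neuronal signalling, 0 were called by limma, and 2 higher and 4 lower genes lay under 0.05 before adjustment (median -0.012). Higher calls among the 78 genes numbered as follows: 10, 4 and 10 were called without wild-type replicate 1, 2 or 3, and 17, 1 and 5 without mutant replicate 1, 2 or 3.

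**Figure D4:**
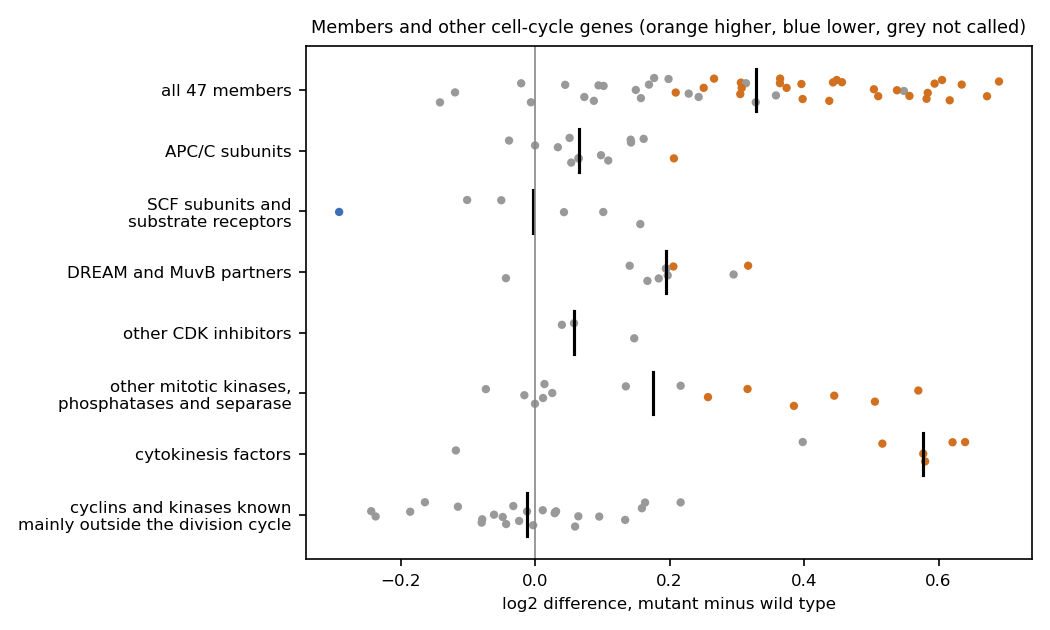
Log2 differences, mutant minus wild type, of the 47 members and of 7 lists of other cell-cycle genes (points, 1 per gene), with the median of each list as a bar. Orange genes were called higher, blue lower and grey neither, and the bars range from -0.012 for cyclins and kinases outside the division cycle to 0.58 for cytokinesis factors.

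Markers of the cell types in the dissected brain moved beside the members. In bulk tissue, fewer cells of a type and less RNA per cell cannot be told apart. Of 5 markers of intermediate progenitors, which divide, 4 rose (median 0.51), with array means of -0.43, -0.29 and -0.13 for wild type against 0.19, 0.26 and 0.22 for mutant. Of 8 radial glia markers, Nes and Vim rose and 6 were not called (median 0.13), with array means of -0.13, -0.032 and -0.047 for wild type against 0.10, 0.044 and -0.040 for mutant. Differences were negative for Slc1a3 (-0.26 ± 0.086, limma adjusted p = 0.13), Fabp7 (-0.079, every mutant below every wild type) and Hes5 (-0.072), and positive for Pax6 (0.30), Sox2 (0.15) and Hes1 (0.11). Of the 6 called markers of both lists only Neurog2 and Gadd45g kept the call in every fit on 5 arrays. Of 9 markers of postmitotic neurons 3 fell and 0 rose (median -0.26), with array means of 0.10, 0.11 and 0.046 for wild type against -0.030, -0.17 and -0.29 for mutant. Of the neuron markers, Tubb3 and Dcx had differences of -0.030 and -0.031, and Snap25, Syt1 and Mapt fell by 0.42, 0.38 and 0.36. Leaving out the wild types in turn gave 0, 0 and 3 neuron markers called lower, and leaving out the mutants 6, 0 and 1. Over all rows, lower calls in these fits numbered 457, 217 and 738 without the wild types in turn. They numbered 1639, 113 and 399 without the mutants, against 967 with all arrays.

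Markers of astrocytes fell for 3 of 5 genes (array means 0.24, 0.20 and 0.076 for wild type against -0.035, -0.19 and -0.28 for mutant) and those of oligodendrocyte precursors, which also divide, for 2 of 5 (array means 0.23, 0.083 and 0.060 for wild type against -0.038, -0.28 and -0.40 for mutant). With the wild types left out in turn, 0, 0 and 2 astrocyte and 1, 0 and 1 precursor markers were called lower, and with the mutants left out, 4, 0 and 0 astrocyte markers and 3, 0 and 1 precursor markers were. The lower calls over all rows in the same fits are given above. Of the 5 markers each of endothelium and meninges 1 fell, and of those of microglia and choroid plexus 0 were called by limma, with 0 under 0.05 before adjustment. The array means of microglia markers were 0.033, -0.0095 and -0.010 for wild type against -0.020, -0.037 and -0.019 for mutant. Of 7 red-cell markers, Hbb-y and Hba-x, globins of the embryo, rose by 3.79 and 1.44, and 5 were not called. Among the 5 was a further globin of the embryo, Hbb-bh1 (0.135, every mutant above every wild type, limma adjusted p = 0.13). The others were Slc4a1 (0.075), Alas2 (-0.072) and the factors of dividing red-cell precursors Klf1 (0.037) and Gata1 (-0.0018). Centred values cannot show which markers are near background. The part of cell composition in the differences of the members was not tested.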

How the data were processed

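The deposited values were log2 values that the authors had normalized with Robust Multi-Array Average, per the series text. Affymetrix Expression Console was used, per the submitters' processing notes, which give no version. The table states no log base, and the values were taken as log2 because Robust Multi-Array Average gives log2 values. Every row had a median of 0 to within 5e-07 over the 6 arrays, a centring that no label describes, so no filter on low signal could be applied. The annotation build of the array is not given in the sources used here.

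Of 28856 rows, 21789 named 1 gene, 1621 several and 5446 none. The 23410 rows naming a gene were tested with limma 3.58.1 in R 4.3.3 (lmFit, eBayes, two-sided, Benjamini-Hochberg adjustment across these rows). Symbols were updated by gene identifier through RefSeq (GRCm38.p6), where 21698 of those single-gene rows matched. Where a gene had several rows, the row with most accessions was used, ties going to the lowest identifier. The series text sets 1.5-fold and a corrected p of 0.05 and names no test. Genotype and replicate number came from sample titles. Pairs of relatives were compared by exact permutation with SciPy 1.17.1. Promoter words were counted on both strands in the 250 bases upstream of each RefSeq start. Figures used matplotlib 3.10.9. The fit was also run on simulated data with independent noise for each value, which does not copy shifts that many genes share on an array.

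The members and the lists were chosen with earlier results of these data known. Values on every array are given for the 4 members of smallest p in each role, the D-type cyclins, CDK inhibitors and Rb family, all chosen by that rule. Cdc25c, Wee1, Foxm1, Fzr1 and Nusap1 and the promoters shown were added after their values were seen. Of other lists, up to 4 called genes of smallest p are named, and further genes and markers were named after their values were seen. The labels call the arrays biological replicates. Alternatives were a replicate block, each array left out, all rows, equal array medians, cyclic loess, array weights, a robust variance prior and the mean of a gene's rows.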

Additional observations from a re-analysis of the deposited data

How the results depend on the processing

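With each array left out in turn, the members called higher numbered 5 to 29 (27 with all arrays), those also at 1.5-fold 1 to 11 (6), those called lower 0, and the median difference 0.28 to 0.39. Other cell-cycle genes called higher numbered 1 to 17 (14) and lower 0 to 3 (1). Over all rows, higher calls numbered 32 to 862 (548) and lower calls 113 to 1639 (967). With the replicate number as a block, 31 members and 17 other cell-cycle genes were higher, and 2 other cell-cycle genes were lower. Of all 23410 rows, 904 were higher and 1496 lower with the block, against 548 and 967 without it. The 31 held all 27, and in addition Ccne2, Ccnf, E2f3 and Fbxo5, with limma adjusted p of 0.036, 0.0082, 0.032 and 0.0021 (0.086, 0.057, 0.11 and 0.067 without the block), while Cdc26 lost its call (0.051) and the radial glia marker Slc1a3 was called lower (0.018). Same-numbered arrays correlated at 0.21, 0.047 and 0.20 in their deviations from the genotype means over all rows, and mutant replicate 2 correlated more with wild-type replicate 3 (0.057), so by the rule on all rows the samples were taken to share only a number. Over the members alone the same-number correlations were 0.45, 0.24 and 0.32, each the highest of its arrays, and the series text speaks of 3 independent pairs without saying that the numbers mark them, so a pairing remains possible. With all rows tested, 9 other cell-cycle genes were higher. With array weights, 1 member (Rbl2) was lower and 34 higher, and 31 other cell-cycle genes were higher and 6 lower. That setting called many more rows in all, 2644 higher and 2781 lower of 23410. With the mean of each gene's rows, 0 other cell-cycle genes were lower by limma, since the fall of Fbxw7 was not called (adjusted p = 0.11). Cyclic loess, equal array medians and the robust prior gave 26, 27 and 27 members higher. With all rows tested Cdc25a, Rbl1, Mybl2 and Nek2 lost their calls, and Rbl1 also did with cyclic loess. Without single arrays, Cdkn2d ranged from -0.024 to 0.0067, Ccna1 from -0.0088 to 0.094 and Ccnd3 from -0.081 to 0.023, none of them called. Precision is bounded by 3 arrays a genotype, and no value shows signal over background.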
